A study of Xenopus laevis with 6 samples.

Results

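The orphan nuclear receptors that govern steroid-making cells were followed in the testis of Xenopus laevis, the African clawed frog. The rows were chosen by symbol alone, as every L or S copy of 4 base symbols (nr5a1, nr5a2, nr0b1 and nr4a1) in a table of 31598 mRNA genes. The species is an allotetraploid, and the suffixes L and S name its long and short chromosome sets. The table held 6 rows under these symbols, nr5a1.L, nr5a2.L, nr5a2.S, nr0b1.L, nr4a1 and nr4a1.L. A 7th row, deposited only as LOC108709066, carries the symbol nr0b1.S in the RefSeq annotation of assembly v10.1 and was included, which made 7 receptor rows.

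In the exposed group the frogs lived with atrazine, a triazine herbicide, at 100 µg/L over 180 days, while control frogs are labelled as unexposed, with no solvent named. Both groups were sampled at postnatal day 193, and 3 libraries of rRNA-depleted total RNA of whole testis represent each. The labels name no strain and do not say whether a library holds RNA of a single animal or of several, so p-values measure only the spread between these libraries, which may be partly technical. Levels are FPKM (fragments scaled to transcript length and library size), as the authors deposited them.

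NR5A1, or steroidogenic factor 1, is a transcription factor of the gonads and of the adrenal cortex (the interrenal gland in amphibians) that binds the promoters of steroid-making enzymes as a monomer. In mammals NR0B1, or DAX1, has no DNA-binding domain of the usual kind and represses NR5A1. NR5A2, or LRH-1, is the paralog best known from liver, intestine and ovary. NR4A1, or NUR77, is an immediate early gene that luteinizing hormone raises in Leydig cells through cyclic AMP. In mammals NR5A1 and NR4A1 act on overlapping steroidogenic promoters.

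All 7 receptor rows had reads in all 6 libraries and passed the filter on low values, which kept 23824 rows that reached 0.5 FPKM in 3 or more libraries. None of them passed the test between the groups. The limma adjusted p, over all tested rows with the Benjamini-Hochberg method, was 0.693 for nr5a1.L, nr5a2.S, nr0b1.L, nr4a1 and nr4a1.L, 0.718 for LOC108709066 and 0.775 for nr5a2.L. Of all 23824 rows, 0 passed (0%), and 1410 (5.92%) had an unadjusted p under 0.05, among them 0 of the 7 receptors. Fold changes are atrazine minus control on the log2(FPKM + 1) scale, where the change of a low row comes out too small. The 95% interval of all 7 receptors lay inside a 2-fold change in either direction on that scale.

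The libraries were not equally placed. The mRNA table rests on 7360619 reads, as estimated from the steps of the deposited signal, in atrazine replicate 3 and on 13784626 to 17018697 reads in the other 5 libraries. Control replicate 1 was closer to the mean of the atrazine libraries than to the mean of the other controls in 68% of the tested rows, against 35.5% to 50.2% for the other libraries measured in the same way. The fold change of each receptor is given with and without it. That library was picked from these same values for its nearness to the atrazine libraries. Leaving it out tends to widen the difference by construction, and is not counted as support for a difference.

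The checks of tissue followed marker genes. Sertoli cell markers, the supporting cells of the seminiferous tubule, summed to 378 to 421 FPKM in atrazine and 394 to 472 FPKM in control libraries over 13 rows. Leydig cell markers, the hormone-making cells, summed to 114 to 227 FPKM in atrazine and 245 to 261 FPKM in control libraries over 5 rows, without overlap. All 5 Leydig rows had a negative fold change and none of them passed the test. Most of the sum came from cyp17a1.L, at 66.5 to 149 FPKM in atrazine and 129 to 157 FPKM in control libraries, which overlapped. All 5 rows are also in the NR5A1 target list read below (v10.1 symbols), so both readings rest on shared rows. Most Sertoli markers are likewise in the target or partner list. No row matched the symbol insl3 exactly, and a copy under another name would have been missed. Germ cell markers summed to 1370 to 1437 FPKM in atrazine and 1846 to 2173 FPKM in control libraries over 6 rows, of which 0 passed, and the sperm protein gene sp4-c alone had 290 to 362 FPKM in atrazine and 713 to 1207 FPKM in control libraries. The other 5 germ cell rows summed to 1008 to 1146 FPKM in atrazine and 966 to 1133 FPKM in control libraries, which overlapped. Red blood cell markers summed to 244 to 402 FPKM in atrazine and 398 to 1252 FPKM in control libraries over 10 rows. Of these, 7 rows were tested, 0 passed and all 7 had a negative fold change. Markers of ovarian somatic cells stayed at or under 2.23 FPKM in sum over 5 rows in every library. In whole testis, fewer cells of a type and less RNA per cell cannot be told apart, and the part of these marker differences in the receptor values was not tested.

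The row of NR5A1, nr5a1.L, was the highest receptor. The deposited lncRNA table places it on chromosome 8L at 9944263 to 10017778, in coordinates whose genome build no source used here gives, and it is on the minus strand. The mRNA table lists a wider span for it, 9925422 to 10017778, which is also the span listed for its antisense lncRNA. It had 18.0, 18.3 and 19.2 FPKM in atrazine replicates 1, 2 and 3, and 19.1, 23.9 and 23.4 FPKM in control replicates 1, 2 and 3. The groups overlapped only through control replicate 1, which lay just under the highest atrazine library. The mean was 18.5 ± 0.632 FPKM after atrazine against 22.2 ± 2.64 FPKM in the controls (SD, n = 3). Its log2 fold change was -0.24 ± 0.13 (SE), with a 95% interval of -0.53 to 0.044 and a limma adjusted p of 0.693. With control replicate 1 left out it was -0.34 (interval -0.61 to -0.072, limma adjusted p 0.204). The row stood above 74.4% of the tested rows and rested on 210 to 591 estimated reads per library.

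No row of an S copy of nr5a1 was found under either set of symbols. In the deposited coordinates nr5a1.L is flanked by LOC108698872 and LOC108698235, the same pair that flanks it in assembly v10.1. LOC108698872 averaged 4.77 ± 0.695 FPKM after atrazine against 5.02 ± 0.894 FPKM in the controls (SD, n = 3), a difference within the spread of either group. An intronic antisense lncRNA of nr5a1.L, LOC108698234, was listed at 0.359, 1.02 and 0.848 FPKM after atrazine and at 0.493, 0.314 and 0.307 FPKM in the controls. Those values rest on only 4 to 15 estimated reads per library, and the groups overlapped. It reached 0.5 FPKM in 2 libraries and so was not tested. The library kit keeps strand, per the labels, but no source used here says whether the counting used it, so reads of nr5a1.L and of its antisense RNA may not be fully separated.

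**Figure D1:**
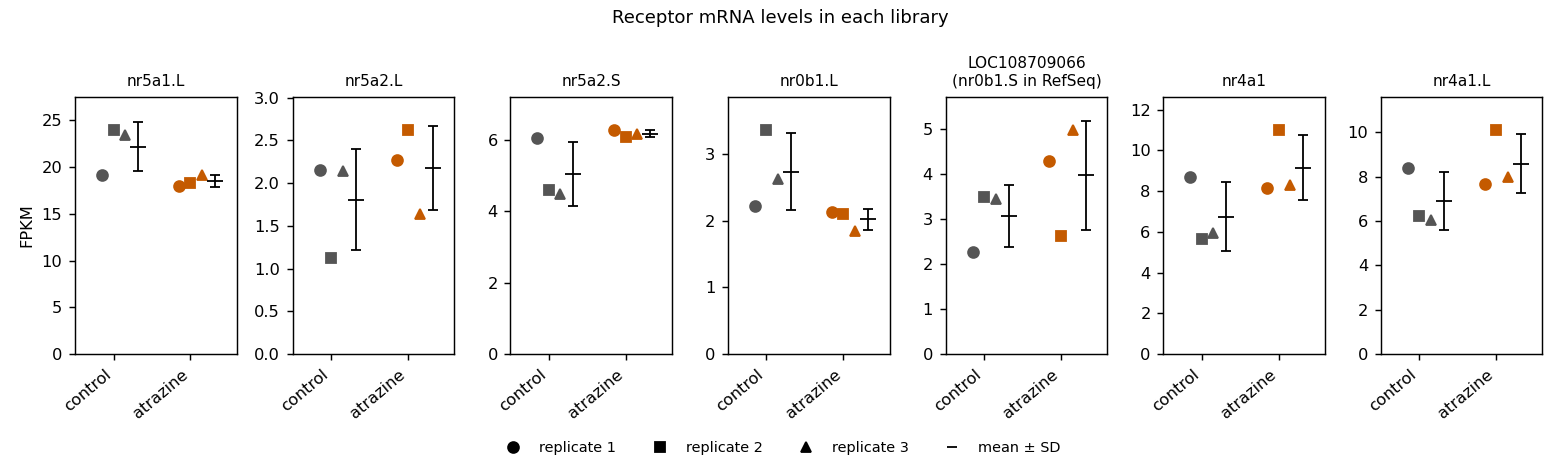
FPKM of each receptor row (vertical axes, each from 0 and with its own scale) in the 3 control and 3 atrazine libraries, with marker shapes for replicate numbers and bars for mean ± SD. In nr5a1.L, nr5a2.S, nr0b1.L, nr4a1 and nr4a1.L the circle of control replicate 1 lies nearer to the atrazine points than the other 2 controls do.

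The repressor nr0b1.L, on chromosome 2L at 38353273 to 38359066, was a low row. It had 2.12, 2.10 and 1.84 FPKM in the atrazine libraries and 2.23, 3.36 and 2.63 FPKM in the controls. All 3 atrazine libraries lay below all 3 controls, by a narrow margin to control replicate 1. Among all tested rows 4.66% were lower in atrazine without overlap, and 11.3% had no overlap in either direction, as did 2 of the 7 receptors. The log2 fold change was -0.30 ± 0.16 (SE), with an interval of -0.66 to 0.065 and a limma adjusted p of 0.693. Without control replicate 2, the highest library, it was -0.18, and without control replicate 1 it was -0.40 with a limma adjusted p of 0.255. Atrazine replicate 3 held 37 estimated reads of it, for which counting alone gives a 95% Poisson interval of 26.1 to 51.0 reads.

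The other nr0b1 copy, LOC108709066 (nr0b1.S in v10.1), lies on chromosome 2S at 872594 to 876873. It had 4.29, 2.63 and 4.97 FPKM in the atrazine libraries and 2.27, 3.48 and 3.43 FPKM in the controls. Atrazine replicate 2 lay among the controls, so the groups overlapped. Its log2 fold change was 0.27 ± 0.22 (SE), with an interval of -0.23 to 0.78 and a limma adjusted p of 0.718. It moved between 0.13 without control replicate 1 or without atrazine replicate 3 and 0.48 without atrazine replicate 2, where it alone of the 7 receptors had an unadjusted p under 0.05 (2.82% of tested rows did) and the limma adjusted p was 0.999. The ratio of LOC108709066 to nr0b1.L was 2.02, 1.25 and 2.70 after atrazine against 1.02, 1.04 and 1.31 in the controls. Atrazine replicate 2 was again within the range of the controls. The point estimates of both copies thus had opposite signs, and neither passed the test.

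Divided library by library, nr5a1.L was 8.48, 8.68 and 10.4 times the FPKM of nr0b1.L after atrazine, and 8.60, 7.13 and 8.92 times in the controls. These ratios of nr5a1.L to nr0b1.L overlapped between the groups. With both nr0b1 rows summed the ratio was 2.80, 3.86 and 2.82 in atrazine and 4.26, 3.50 and 3.87 in control. The ranges overlapped here too, with atrazine replicate 2 inside the control range. Over the 6 libraries nr0b1.L followed nr5a1.L more closely than any other receptor did, at a root mean square difference of 0.10 in log2(FPKM + 1) once each row mean was subtracted, and LOC108709066 was at 0.33.

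The paralog rows of nr5a2 carried their suffixes the other way round from their positions. The row deposited as nr5a2.S lies at 103128171 to 103162739 on a sequence where 1240 of 1776 rows are assigned to chromosome 4L, and its own chromosome entry reads 4S. It is flanked there by LOC108714438 and kif14.L (v10.1 symbol), the genes that flank nr5a2.L in assembly v10.1. The row deposited as nr5a2.L lies at 84572486 to 84636028 on the sequence of 4S, between LOC495208 and wdr47.S, which flank nr5a2.S in assembly v10.1. The rows are named here as deposited, and by position the more abundant row is the copy on 4L.

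The row deposited as nr5a2.S had 6.27, 6.10 and 6.17 FPKM in the atrazine libraries and 6.07, 4.60 and 4.48 FPKM in the controls. Every atrazine library lay above every control, the margin to control replicate 1 being small. Over all tested rows 6.63% were higher in atrazine without overlap. The log2 fold change was 0.26 ± 0.15 (SE), with an interval of -0.079 to 0.59 and a limma adjusted p of 0.693, and without control replicate 1 it was 0.37 (interval 0.046 to 0.70, limma adjusted p 0.227). The coefficient of variation among the atrazine libraries was 1.44%, whereas counting error alone at 73 to 150 estimated reads would give 9.52%. The closeness of the atrazine values is therefore tighter than the reads can resolve. The same holds for the atrazine libraries of nr5a1.L (3.42% against 5.70% from counting) and of nr0b1.L (7.88% against 12.9%). In the atrazine libraries of the other receptors, and in the controls of all receptors, the observed variation exceeded counting error.

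The row deposited as nr5a2.L was the lowest receptor in control testes. It had 2.27, 2.62 and 1.64 FPKM in the atrazine libraries and 2.15, 1.13 and 2.14 FPKM in the controls, and the groups overlapped. Its log2 fold change was 0.19 ± 0.20 (SE), with an interval of -0.28 to 0.66 and a limma adjusted p of 0.775. Leaving out control replicate 2 gave 0.0022, leaving out atrazine replicate 2 gave 0.091 and leaving out atrazine replicate 3 gave 0.32. With control replicate 1 left out it was 0.29 (limma adjusted p 0.516). The deposited nr5a2.S row exceeded it 2.76-fold, 2.33-fold and 3.76-fold after atrazine and 2.82-fold, 4.09-fold and 2.09-fold in the controls. That ratio overlapped between the groups.

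Between the NR5A paralogs, nr5a1.L was 2.87, 3.00 and 3.11 times the FPKM of the deposited nr5a2.S row in the atrazine libraries. In the controls it was 3.16, 5.20 and 5.24 times. The groups did not overlap, but control replicate 1 was next to the atrazine libraries and the other 2 controls were apart. No test was made on this ratio. With both nr5a2 rows summed the ratio was 2.11, 2.09 and 2.46 in atrazine and 2.33, 4.18 and 3.54 in control, and the ranges overlapped.

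Both copies of nr4a1, the receptor that responds to hormone signals within hours in mammals, were measured at similar levels. The row deposited as nr4a1 lies on chromosome 2S at 117813579 to 117844045, and its transcript in the circRNA table belongs to nr4a1.S in assembly v10.1. It had 8.17, 11.0 and 8.30 FPKM in the atrazine libraries and 8.70, 5.62 and 5.93 FPKM in the controls. Control replicate 1 lay inside the atrazine range, and the other 2 controls lay below it. The log2 fold change was 0.40 ± 0.19 (SE), the largest of the 7 receptors by point estimate, with an interval of -0.032 to 0.83 and a limma adjusted p of 0.693. Without control replicate 1 it was 0.57 (interval 0.19 to 0.96, limma adjusted p 0.178), and without atrazine replicate 2 it was 0.27.

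The row nr4a1.L, on chromosome 2L at 135956627 to 135990066, had 7.64, 10.1 and 7.98 FPKM in the atrazine libraries and 8.39, 6.21 and 6.05 FPKM in the controls. Its order of libraries was close to that of the other copy, with atrazine replicate 2 highest and control replicates 2 and 3 lowest, and the groups overlapped. Its log2 fold change was 0.28 ± 0.17 (SE), with an interval of -0.10 to 0.67 and a limma adjusted p of 0.693. It was 0.17 without atrazine replicate 2 and 0.42 without control replicate 1 (limma adjusted p 0.230). The ratio of nr4a1.L to nr4a1 was 0.935, 0.918 and 0.962 after atrazine against 0.964, 1.10 and 1.02 in the controls. The copies can share reads, and no source used here says how such reads were counted, so their likeness, at a root mean square difference of 0.078 in centred log2(FPKM + 1), is not independent evidence. Summed over both copies, nr4a1 was 0.879, 1.15 and 0.848 times nr5a1.L in the atrazine libraries. In the controls it was 0.892, 0.494 and 0.511 times, so that control replicate 1 again lay in the atrazine range.

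**Figure D2:**
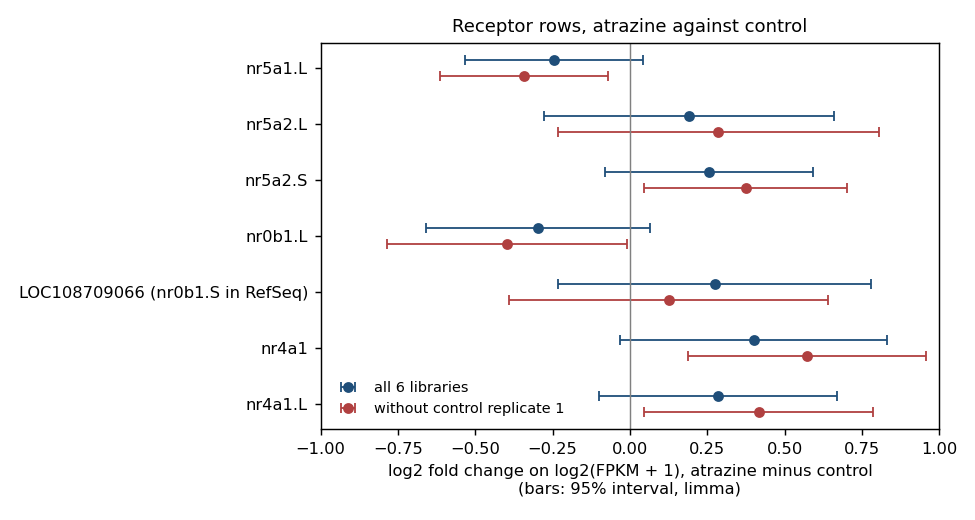
Log2 fold change of each receptor row, atrazine minus control on the log2(FPKM + 1) scale (horizontal axis), with 95% intervals from limma, for all 6 libraries and without control replicate 1. With all libraries every interval includes 0, and without control replicate 1 the intervals of nr5a1.L, nr5a2.S, nr0b1.L, nr4a1 and nr4a1.L do not. That library was left out because it lay near the atrazine libraries, which favours this shift by construction.

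The levels were ordered in a similar way in both groups. In control testes nr5a1.L led with 22.2 ± 2.64 FPKM, followed by nr4a1.L with 6.88 ± 1.31, nr4a1 with 6.75 ± 1.69, nr5a2.S with 5.05 ± 0.885, LOC108709066 with 3.06 ± 0.683, nr0b1.L with 2.74 ± 0.573 and nr5a2.L with 1.81 ± 0.589 FPKM (SD, n = 3). Among neighbours in this order, the libraries of the nr4a1 copies overlapped each other, those of nr4a1 overlapped nr5a2.S and those of LOC108709066 overlapped nr0b1.L. In atrazine testes the means were 18.5 ± 0.632 for nr5a1.L, 9.15 ± 1.59 for nr4a1, 8.57 ± 1.32 for nr4a1.L, 6.18 ± 0.0890 for nr5a2.S, 3.96 ± 1.20 for LOC108709066, 2.18 ± 0.496 for nr5a2.L and 2.02 ± 0.159 FPKM for nr0b1.L (SD, n = 3). There the nr4a1 copies overlapped each other, and so did nr5a2.L and nr0b1.L. The gap between nr5a1.L and the next receptor was free of overlap in both groups.

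The receptor values shared the placement of control replicate 1. In 6 of the 7 rows, all but LOC108709066, that library was nearer to the atrazine mean than to the mean of the other controls, as it was in 68% of all tested rows. Each of the other 5 libraries was nearer to the opposite group in 1 or 2 of the 7 rows. Without control replicate 1, 5 of the 7 receptors had an unadjusted p under 0.05, beside 19% of the 23824 tested rows. Leaving out the control nearest to the atrazine libraries favours such values by construction, so they are not counted as support. No receptor passed after adjustment, against 5 of all tested rows (0.021%, receptors at limma adjusted p 0.178 to 0.795). In star and hsd3b1.L, the known NR5A1 targets with the smallest p, control replicate 1 lay with the other controls. In the target akr1b1.S it lay inside the atrazine range, at 18.1 FPKM, and the other controls lay above that range. In cyp17a1.L it lay inside the wide atrazine range of 66.5 to 149 FPKM, at 129 FPKM. Control replicate 2, at 138 FPKM, lay inside the cyp17a1.L range as well. The cholesterol carrier gene star had 23.9, 47.5 and 29.3 FPKM in the atrazine libraries and 64.3, 72.9 and 63.2 FPKM in the controls. Why control replicate 1 is placed in this way was not tested.

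**Figure D3:**
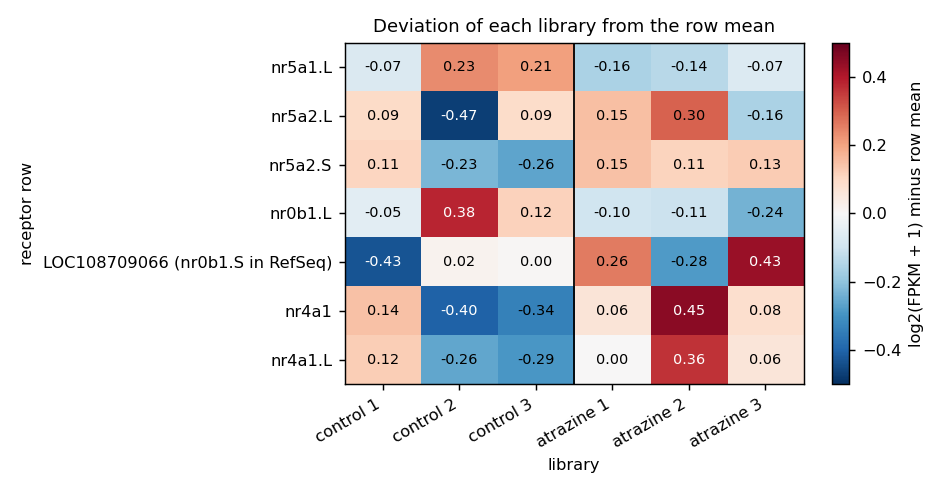
Deviation of each library (columns) from the row mean of each receptor (rows), in log2(FPKM + 1), with the value in each cell and a line between control and atrazine libraries. Control replicate 1 has the sign of most atrazine libraries in every row except LOC108709066, where it is the lowest library at -0.43.

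Known targets of NR5A1 in gonad and interrenal gland were read from a list of 30 symbols, of which 16 had 19 rows and 15 rows were tested. None of the 15 was called (background 0%), 7 had a positive and 8 a negative fold change, and the median was -0.023, beside 0.040 for all tested rows. The groups did not overlap in 4 of the 15 (26.7%), 2 in each direction, beside 11.3% of all tested rows. The 6 rows with the smallest p, none of which passed, were hsd3b1.L at a log2 fold change of -0.72, star at -1.03, the prolactin receptor gene prlr.S at 0.40, the inhibin alpha subunit gene inha.S at 0.18, the aldose reductase gene akr1b1.S at -0.27 and cyp17a1.L, the gene of the androgen-making lyase, at -0.38. Each had a limma adjusted p between 0.693 and 0.702. Without control replicate 1, akr1b1.S was at -0.43 and the median of the list was 0.0060, beside 0.056 for all tested rows. With the symbols of assembly v10.1, 31 target rows were tested, 14 positive and 17 negative, with the same median of -0.023, and 7 of the 31 had no overlap, 2 higher and 5 lower in atrazine. The v10.1 symbols added mc2r.L (LOC108718761), the corticotropin receptor of interrenal cells, at -0.56 and cyp11a1.S (LOC108712986), the side-chain cleavage enzyme, at -0.37. They also added nr0b2.L (LOC108704153), the repressor also called SHP, at -0.38, where the groups overlapped. None of these passed. Other added rows were positive, among them por.S (LOC108709620) and amh.L (LOC108719965), both at 0.15, which did not pass either.

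The interrenal gland also expresses nr5a1, so its other markers were read beside it. Markers of interrenal and chromaffin cells summed to 19.7 to 21.9 FPKM in atrazine and 16.1 to 22.5 FPKM in control libraries over 9 rows, and 0 of the 4 tested rows passed. Most of that sum came from chga.S and chga.L, genes of secretory granules in many neuroendocrine cells. The noradrenaline enzyme rows dbh.L and dbh.S stayed at or under 0.395 FPKM in every library. The row th.L (LOC108713461) had 1.76, 1.48 and 2.30 FPKM in atrazine and 1.59, 2.03 and 1.48 FPKM in control libraries. The row mc2r.L had 2.10, 1.99 and 1.01 FPKM in atrazine and 3.35, 2.97 and 2.43 FPKM in control libraries, lower without overlap. Of the 4 tested rows 3 had a positive and 1 a negative fold change. The adrenocortical genes cyp21a2, cyp11b1 and cyp11b2 matched no row and were not analysed here. Markers of liver, where nr5a2 is best known, summed to 10.8 to 16.2 FPKM in atrazine and 11.5 to 21.2 FPKM in control over 9 rows, and those of intestine to 5.50 to 12.7 and 7.14 to 10.1 FPKM over 5 rows. Both sums overlapped between the groups, and none of their tested rows passed. Markers of kidney tubule summed to 31.0 to 38.6 FPKM in atrazine and 36.7 to 39.5 FPKM in control libraries over 4 rows, most of it from lrp2.L. That sum overlapped too, and 0 of its 2 tested rows passed.

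Partners and co-regulators of the receptors were read from a list of 43 symbols. Of 45 tested rows 0 were called, 26 were positive and 19 negative, and the median was 0.035, beside 0.040 for all tested rows. With v10.1 symbols 71 rows were tested, 44 positive and 27 negative, 0 were called and the median was 0.043. With the deposited symbols the list median was 0.020 without atrazine replicate 2, beside 0.021 for all tested rows. Without control replicate 1 it was 0.021, beside 0.056 for all tested rows. Among the rows with the smallest p, none of which passed, were the Polycomb row cbx2.L_2 at 0.34, the row deposited as nr2f2 (nr2f1.S in v10.1) at -0.42, cebpb.S at 0.35, dmrt1.S at -0.22 and gata6.S at 0.32. None of the gonadal factors gata4, wt1 and dmrt1, known to act with NR5A1 in mammals, passed the test. The row gata4.L had 12.1 ± 0.108 FPKM after atrazine against 12.4 ± 0.731 FPKM in the controls, gata4.S 12.3 ± 1.84 and 12.6 ± 1.11, wt1.L 7.92 ± 1.23 and 6.48 ± 0.782, wt1.S 5.04 ± 0.614 and 5.51 ± 2.10, and dmrt1.L 141 ± 8.12 and 137 ± 2.64 FPKM (SD, n = 3). These 5 rows overlapped between the groups.

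Genes that rise with nr4a1 after acute stimulation were read from a list of 30 immediate early symbols. Of 26 tested rows 0 were called, 21 were positive and 5 negative, and the median was 0.13, against 0.040 for all tested rows, 13659 of which were positive. The groups did not overlap in 3 of the 26 rows (11.5%), as in 11.3% of all tested rows. With v10.1 symbols 44 rows were tested, 36 positive and 8 negative, 0 were called and the median was 0.15. The clock gene per1.L had 2.86, 5.11 and 4.28 FPKM in the atrazine libraries and 2.35, 1.80 and 2.46 FPKM in the controls, a log2 fold change of 0.65, with the atrazine libraries all higher. The other rows with the smallest p were junb.L at 0.31, fos.S at 0.30, jun.L at 0.39, junb at 0.28 and ier2.L at 0.42, all with a limma adjusted p of 0.693. With the deposited symbols the median was 0.0095 once atrazine replicate 2, the library with the highest nr4a1, was left out, beside 0.021 for all tested rows. Once atrazine replicate 1 was left out it was 0.23, beside 0.051 for all tested rows. With control replicate 1 left out it was 0.19, beside 0.056 for all tested rows, and jun.L was at 0.61.

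Other nuclear receptors made up a list of 43 symbols with 32 tested rows, of which 0 were called, 20 were positive and 12 negative. Their median was 0.10, beside 0.040 for all 23824 tested rows, 13659 of which were positive. The groups did not overlap in 5 of the 32 (15.6%), 3 higher and 2 lower in atrazine, beside 11.3% of all tested rows. The smallest p values, none of which passed, belonged to the clock repressor nr1d1.L at 0.54, the row deposited as nr2f2 at -0.42, the xenobiotic receptor nr1i2.S at 0.43, the mineralocorticoid receptor nr3c2.L at 0.26, the testicular receptor nr2c1.S at -0.36 and the glucocorticoid receptor nr3c1.S at -0.23. The other glucocorticoid receptor row, nr3c1.L, was at 0.21 and did not pass either. With v10.1 symbols 54 rows were tested and the median was 0.056. With the deposited symbols the median was 0.068 without control replicate 1, where nr2c1.S was at -0.55, 0.069 without control replicate 3 and 0.15 without atrazine replicate 1. The median of all tested rows in these fits was 0.056, 0.044 and 0.051.

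**Figure D4:**
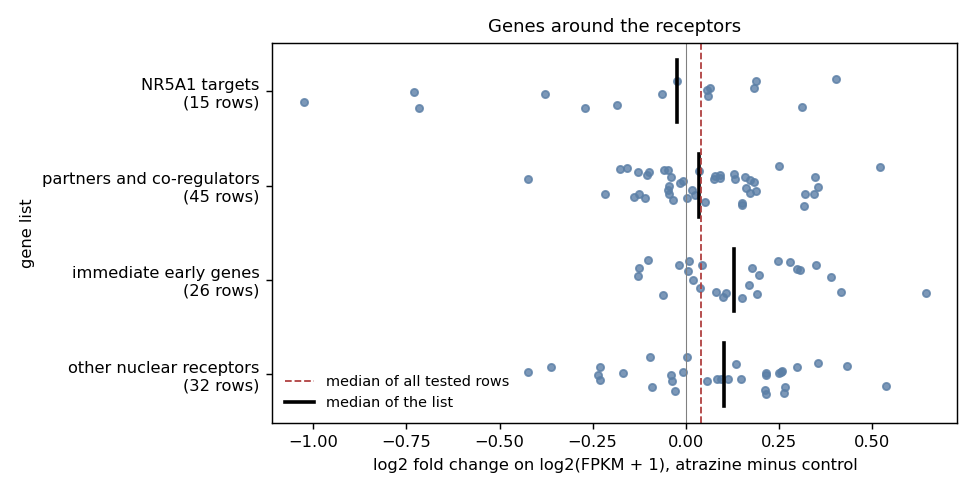
Log2 fold change of every tested row (points, deposited symbols) of the 4 gene lists, with the list median as a black bar and the median of all 23824 tested rows, 0.040, as a dashed line; the vertical scatter has no meaning. The list medians run from -0.023 for NR5A1 targets to 0.13 for immediate early genes, and no point passed the test.

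The genes whose pattern over the 6 libraries was most like each receptor were found among 7414 tested rows with a gene symbol and a mean of at least 5 FPKM. The measure was the root mean square difference of log2(FPKM + 1) after subtraction of each row mean. For nr5a1.L the nearest were actr1a.L (0.034), rps6kc1.L (0.034) and slc39a9.L (0.036). For nr0b1.L they were ndufc2.S (0.033), spr.L (0.039) and the row deposited as ipo7.S (0.040), and for LOC108709066 they were farther off, with rwdd4.L (0.11), abi1.S (0.11) and tpx2.S (0.13). For nr5a2.S they were gpatch4.L (0.033), psmb5.L (0.039) and gpr75.S (0.042), and for nr5a2.L atad3a.L (0.030), osgep.L (0.031) and slc25a46.S (0.047). For nr4a1 they were mtfr1l.L (0.048), dhrs7.L (0.049) and atxn10.L (0.052), and for nr4a1.L slc25a12.L (0.033), rps6kb1.S (0.038) and the row deposited as slc13a4.S (0.045). With 6 libraries and this many candidate rows, close matches of this size say nothing of shared function.

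Circular RNAs of the receptor genes were close to the limit of detection. Of 68575 circRNAs, 4 were assigned to a receptor, and each had reads in 1 or 2 libraries, under the filter of 3 libraries for a test. The 2 on the nr5a1.L strand, at 9997370 to 10020209 and at 10008247 to 10020209 of chromosome 8L, had 5 junction reads in control replicate 3 and 2 in control replicate 1, and were listed at 0 in the other libraries. At nr4a1 on chromosome 2S an exonic circle at 117840563 to 117841292 had 2 reads in control replicate 2. An antisense one at 117822982 to 117826095 had 2 reads each in atrazine replicate 1 and control replicate 2. The smallest count above 0 in that table is 2. The groups also differ in total junction reads, 152852 in atrazine and 216796 in control, so no difference can be read from these counts.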

How the data were processed

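The mRNA and lncRNA tables hold FPKM values made by the authors, per the file headers. Beside them the authors deposited a signal headed as counts that is not whole. In the mRNA table at least 99.77% of its values above 0 are multiples of 1 step per library (tolerance 0.02), and reads were estimated by dividing by that step. A few values lie far below 1 step, so no count model was run. The circRNA table holds raw junction counts, per the file headers. CASAVA 1.8, Bowtie2 and HISAT2 are named in the submitters' processing notes. Which quantifier, circRNA caller and build made the tables is not stated there. Positions follow the files, counted from 1, and RefSeq v10.1 was used for names and flanking genes only.

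Rows that reached 0.5 FPKM in 3 or more libraries entered a fit with limma 3.58.1 under R 4.3.3 (eBayes with a trend) on log2(FPKM + 1), two-sided, with group as the only term, Benjamini-Hochberg adjustment over all tested rows and a threshold of 0.05. The fit was tested on simulated data with independent noise of the same size in every row. Known changes, larger than the fold change of any receptor, were put in rows of higher level only. That simulation does not cover changes as small as those of the receptors or rows of unlike spread. It also does not cover changes in low rows or a library placed like control replicate 1. The members, lists and rules were chosen with earlier results of these data known. Named rows are all receptors, up to 6 rows of smallest p per list, and star, cyp17a1, hsd3b1, gata4, wt1 and dmrt1. A row that this rule takes from the partner list is not reported here. The mc2r, cyp11a1, nr0b2, por, amh, th and nr3c1.L rows were named after their values were seen. The marker rows sp4-c, chga.S, chga.L, dbh.L, dbh.S and lrp2.L are also outside that rule and were picked from the marker lists. Alternatives were a pseudocount of 0.1 FPKM, no filter, median-of-ratios scaling, a replicate block, v10.1 symbols for the lists and leaving out each library. No circRNA or lncRNA of a receptor passed the filters, so neither table was fitted, and promoter and protein sequences were not analysed here. Precision follows the estimated reads, which cover counting error only.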

Additional observations from a re-analysis of the deposited data

How the results depend on the processing

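No receptor passed under any of 10 alternatives, where the lowest limma adjusted p was 0.178. The sign of the fold change was kept in all 70 combinations of receptor and alternative. Dropping the filter or adding the replicate block cannot change the fold change, so the signs there were fixed in advance. In nr5a2.S and nr0b1.L, whose groups did not overlap, neither the pseudocount nor leaving out a library could reverse the sign. Without control replicate 2, nr5a2.L kept its sign only at 0.0022. The number of called mRNA rows ran from 0 to 5 as each library was left out, with 5 without control replicate 1 and 1 without atrazine replicate 3, and was 0 under the other alternatives. At an unadjusted p under 0.05 limma gave 1410 rows with all libraries, 4522 without control replicate 1, 672 without atrazine replicate 2, 793 with control replicate 2 left out and 787 with control replicate 3 left out. No pairing by replicate number was seen, as deviations of same-numbered libraries correlated at 0.025, -0.35 and -0.039 over tested rows. Libraries of unlike number correlated at -0.36 to 0.41. With 3 libraries per group these values cannot show whether a pairing or batch existed. With the number as a block, 1031 rows had an unadjusted p under 0.05, 0 were called and nr5a1.L had a limma adjusted p of 0.801. The median of the partner list was -0.0087 with median-of-ratios scaling, where that of all tested rows was 0.0036. The median of the NR5A1 target list was 0.045 without a filter, beside 0.023 for all tested rows. As each library was left out, the target median ran from -0.062 to 0.0060, beside 0.014 to 0.056 for all tested rows. Depth limits nr0b1.L, LOC108709066 and nr5a2.L most, with 34 to 40 estimated reads in atrazine replicate 3.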
